A study of Mus musculus with 4 samples.

Results

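SWI/SNF complexes are chromatin remodellers that use ATP to slide or evict nucleosomes. In muscle precursors they are known for opening the regulatory regions of genes that the transcription factor MYOD switches on. Each complex holds 1 ATPase, either Smarca4 (BRG1) or Smarca2 (BRM), with the scaffolds Smarcc1 and Smarcc2 and a subunit of the Smarcd family; Smarcb1 is a core subunit of the canonical and PBAF forms. Arid1a and Arid1b are alternative large subunits that mark the canonical form of the complex. Smarcd3 (BAF60c) is the Smarcd subunit known to associate with MYOD. The 10 genes described here are Smarca2, Smarca4, Smarcb1, Smarcc1, Smarcc2, Smarcd1, Smarcd2, Smarcd3, Arid1a and Arid1b. They were taken by symbol from a deposited table of 54446 gene rows, in which each had 1 row.

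The values were transcript levels in cultured satellite cells, the muscle stem cells, from the hindlimb of C57BL/6 mice with no engineered allele named. The knockdown group (2 samples) received siRNA directed at LncMyoD, a long non-coding RNA, and the control group (2 samples) received control siRNA; the protocol gives 48 h between siRNA and harvest for all 4 samples, in F10 medium with 10% HS. One treatment text, naming LncMyoD as the target, stands on the control samples too, so the grouping rests on titles, descriptions and treatment tags. The labels do not say whether samples of a group came from different animals or cultures, so the p-values cover sample-to-sample spread alone, and that spread may be technical. The level of LncMyoD itself was not analysed here.

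Levels are in FPKM, read fragments scaled to transcript length and library size, and are set side by side between genes on this per-length scale, within the limits given below for genes with many transcripts or shared exons. The libraries were of like depth: a transcript of 1 kb at 1 FPKM rested on 36.6 to 41.1 reads of 150 nt. Of the 10900 genes that averaged 1 FPKM or more over the libraries, 6 (0.055%) passed an adjusted p of 0.05 by limma; the count was 3 with the replicate number as a block, 0 with no filter on low values and 15 without knockdown replicate 1. The 8 myogenic markers, led by Myog, summed to 4427 and 4039 FPKM in the knockdown libraries and 5426 and 5147 in the controls. Of the 7 tested, knockdown lay wholly below control for 3, beside 16.3% of all genes tested. It lay wholly above for 1, Vcam1, beside 22.1%, with 46.3 and 53.7 FPKM against 42.4 and 44.0. The groups overlapped for Cdh15, Itga7 and Des. The satellite cell factor Pax7 was between 0.625 and 1.40 FPKM. Listed at 0 in all 4 libraries were 4 of 7 leukocyte markers, Ptprc among them, and 1 each of 7 endothelial (Kdr), 6 Schwann cell (S100b) and 7 smooth muscle and pericyte markers (Kcnj8), and Pdgfra of fibro-adipogenic cells was above 0 in 1 library. Summed levels ran from 5.88 to 8.45 FPKM for 7 endothelial markers, led by Eng, from 1.66 to 3.14 for 7 leukocyte markers, led by Cd14, and from 0.011 to 1.54 for 6 Schwann cell markers, led by Ngfr. The summed level of 7 smooth muscle and pericyte markers was 2673 and 2579 FPKM in the knockdown libraries and 3170 and 3026 in the controls, nearly all of it Acta2. In that list Mcam was also lower, with 0.826 and 0.570 FPKM against 2.22 and 1.94. Cspg4 was lower too, with 1.02 and 1.04 against 1.53 and 1.42, and neither passed the test over all genes. For Notch3 the groups overlapped, with 0.768 and 1.37 against 1.12 and 0.932. Myh11 reached at most 0.034 FPKM in any library and Rgs5 at most 0.098. The summed level of 8 fibro-adipogenic markers, of which 5 averaged under 1 FPKM, was 73.4 and 62.6 against 79.0 and 88.0. It was led by Islr, with 42.1 and 30.6 against 51.2 and 58.5. Col1a1 was also lower, with 3.20 and 2.18 against 3.76 and 4.70. Col3a1 of the same list went the other way, with 27.4 and 29.4 against 23.0 and 24.4. The myogenic, smooth muscle and fibro-adipogenic sums were all lower in both knockdown libraries; their part in the results below was not tested. Apart from the highest of each list, the markers named here were chosen after their values were seen. In bulk RNA, fewer cells of a type and less RNA per cell cannot be told apart.

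No SWI/SNF subunit passed the test between knockdown and control cells, a test that 0.055% of all genes passed. Of the 10, 8 had a positive and 2 a negative log2 fold change (knockdown minus control, on log2(FPKM + 1), which understates changes of low genes), from -0.16 for Smarca2 to 0.45 for Arid1b. The median over the 10 was 0.14, and over the 9 that were tested it was 0.16, beside 0.026 over all genes tested. Smarcd1, with a mean of 0.968 FPKM, lay under the filter on low values and was not tested; the other 9 had limma adjusted p-values from 0.771 to 0.987, and 0 of the 9 had an unadjusted p under 0.05, where 7.08% of all tested genes did. Smarcd3 and Arid1b, 2 of the 9 tested, were higher in each knockdown library than in either control, beside 22.1% of all genes tested. Of the 9, 0 were lower in each, beside 16.3%. The median over the 10 subunits was 0.032 without control replicate 1 and 0.082 with quantile normalization.

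**Figure D1:**
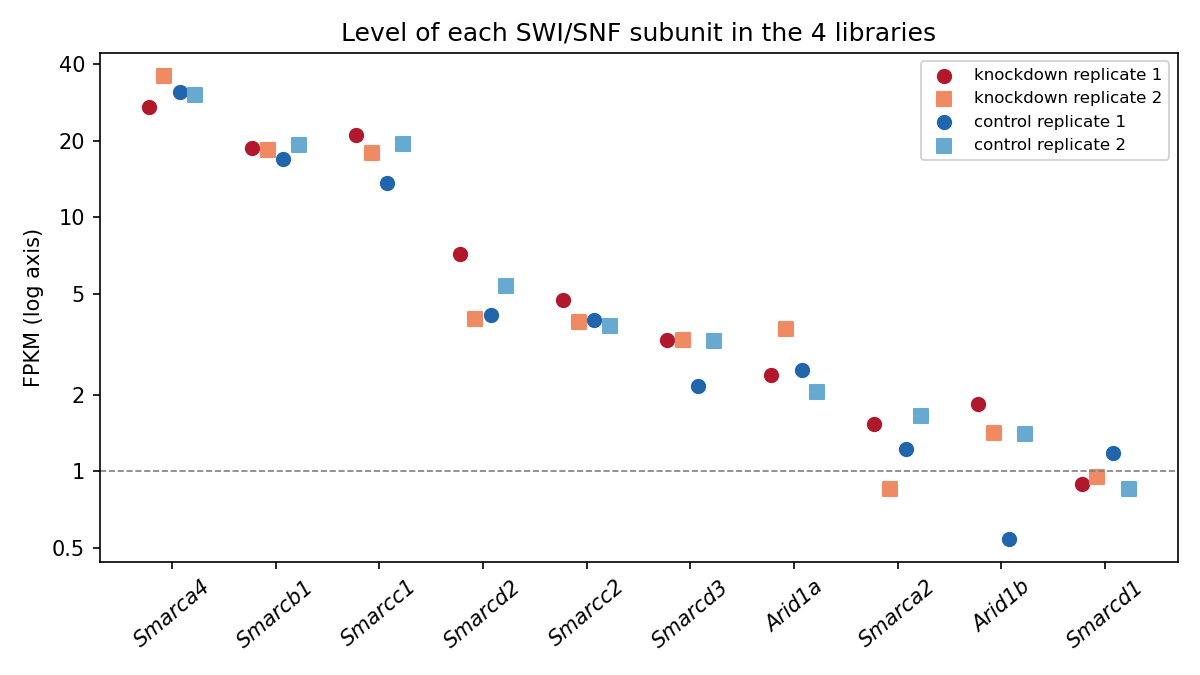
FPKM of the 10 SWI/SNF subunits in each of the 4 libraries, on a log axis; each point is 1 library, and the dashed line marks 1 FPKM. Smarca4 is highest, at 27.1 to 35.9 FPKM, Smarcd1 is lowest by mean, and knockdown and control points are interleaved for 8 of the 10 genes.

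The levels spanned a wide range. Smarca4 led with a mean of 31.1 ± 3.66 FPKM (SD, n = 4), and its lowest library stood above the highest library of any other subunit. Smarcb1 (18.3 ± 0.961) and Smarcc1 (18.0 ± 3.20) followed and overlapped each other. A gap separated these 3 from Smarcd2 (5.16 ± 1.48) and Smarcc2 (4.08 ± 0.445), which overlapped each other. Smarcd3 (3.01 ± 0.557) and Arid1a (2.65 ± 0.682) formed the next overlapping pair, and Smarca2 (1.32 ± 0.355), Arid1b (1.301 ± 0.546) and Smarcd1 (0.968 ± 0.147) overlapped at the bottom. By mean level, Smarca4 stood at the 82.1 percentile of the tested genes and Smarca2 at the 6.66 percentile.

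Sequence just upstream of a RefSeq start is shown for 2 subunits, the most abundant one and the one tied to MYOD, as windows of 250 bases on GRCm38.p6, written 5′ to 3′ along the gene. Capitals mark CAGCTG, an E-box of the kind bound by MYOD, and GGGCGG or CCGCCC, the GC box and its reverse complement. The Smarca4 window is chr9:21615919-21616168 on the plus strand and the Smarcd3 window is chr5:24602003-24602252 on the minus strand. The Smarcd3 window lies inside the annotated gene, upstream of an internal start and not of the outermost one, and 10 of its bases are in annotated Smarcd3 exons.
Smarca4: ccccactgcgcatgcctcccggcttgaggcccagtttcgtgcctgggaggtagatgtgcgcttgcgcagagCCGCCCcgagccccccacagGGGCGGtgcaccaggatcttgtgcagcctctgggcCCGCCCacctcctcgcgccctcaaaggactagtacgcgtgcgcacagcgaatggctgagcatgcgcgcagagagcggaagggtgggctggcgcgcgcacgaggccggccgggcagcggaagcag
Smarcd3: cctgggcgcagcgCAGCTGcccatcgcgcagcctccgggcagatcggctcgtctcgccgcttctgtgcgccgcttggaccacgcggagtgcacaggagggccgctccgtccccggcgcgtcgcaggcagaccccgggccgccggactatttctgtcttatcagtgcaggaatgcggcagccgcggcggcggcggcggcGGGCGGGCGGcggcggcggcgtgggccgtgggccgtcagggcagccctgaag
The Smarcd3 window held 1 CAGCTG and 2 overlapping GGGCGG. The Smarca4 window held 3 GC boxes and 0 CAGCTG. All 10 subunits matched a promoter entry, in 11 windows, since Arid1a has 2, and these hold from 0 to 167 bases annotated as exons of the same gene. CAGCTG, which reads the same on both strands, was in 1 of these 11 windows, beside 13.0% of 32851 windows of the same length over all genes. The related sequence CAGGTG, or its reverse complement CACCTG, was in 1 of the 11, that of Smarcd2, beside 17.2%. GGGCGG or CCGCCC was in 10 of 11, beside 32.7%, and the median GC content was 70.8% beside 52.4%. A match is a description of letters and not a measured site.

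Of the ATPases, Smarca4 (chromosome 9, 21616169 to 21704230, plus strand, GRCm38) had 27.1 and 35.9 FPKM in the knockdown libraries and 31.2 and 30.1 in the controls. The knockdown libraries lay on either side of the controls, which were close to each other. The mean was 31.5 ± 6.24 FPKM for knockdown and 30.7 ± 0.732 for control (SD, n = 2). Its log2 fold change was 0.023 with a 95% interval of -0.36 to 0.41 (limma adjusted p 0.987). Without knockdown replicates 1 and 2 it was 0.22 and -0.17, without control replicate 2 it was -0.00028, and with scaling by median ratio it was -0.0055.

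Smarca2 (chromosome 19, 26605050 to 26778322, plus strand), the alternative ATPase, had 1.54 and 0.856 FPKM in the knockdown libraries and 1.23 and 1.65 in the controls. Knockdown replicate 2 was the lowest library and the groups overlapped. The log2 fold change was -0.16 with an interval of -0.79 to 0.47 (limma adjusted p 0.921), and it was -0.39 and 0.066 without knockdown replicates 1 and 2. Knockdown replicate 2 thus held both the highest Smarca4 and the lowest Smarca2 value. The ratio of Smarca4 to Smarca2 was 41.9 there, 17.6 in knockdown replicate 1, and 25.3 and 18.3 in the controls. Smarca4 took 94.6% and 97.7% of the summed ATPase level in knockdown and 96.2% and 94.8% in control, a difference in means of 0.63 percentage points (exact two-sided permutation p = 1). With 2 against 2 samples the smallest p this test can give is 0.333. Smarca2 is annotated with 46 transcripts, whose coding forms run from 421 to 5921 nt, so a value per length depends on which of them the reads were assigned to.

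The core subunit Smarcb1 (chromosome 10, 75896769 to 75921617, minus strand), known as a tumour suppressor, was the steadiest of the 10 in proportion to its level. It had 18.7 and 18.4 FPKM in the knockdown libraries and 16.9 and 19.2 in the controls. Both knockdown values fell between the 2 controls. The log2 fold change was 0.041 with an interval of -0.29 to 0.37 (limma adjusted p 0.963), and -0.043 without control replicate 1.

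The scaffold Smarcc1 (chromosome 9, 110117708 to 110240178, plus strand) had 21.1 and 17.9 FPKM in the knockdown libraries and 13.7 and 19.4 in the controls. Control replicate 1 was the low library and the other 3 were close together. The log2 fold change was 0.24 with an interval of -0.24 to 0.72 (limma adjusted p 0.822), and it was 0.0025 and 0.48 without control replicates 1 and 2. Its paralogue Smarcc2 (chromosome 10, 128459248 to 128490482, plus strand) had 4.73 and 3.89 FPKM in the knockdown libraries and 3.94 and 3.75 in the controls. Knockdown replicate 1 was the high library, and the log2 fold change was 0.13 with an interval of -0.34 to 0.60 (limma adjusted p 0.917), which was 0.014 without that library and 0.24 without knockdown replicate 2. Smarcc1 was the main scaffold transcript in every library, with 81.7% and 82.2% of the pair in knockdown and 77.6% and 83.8% in control (exact two-sided permutation p = 1). Smarcb1 made up 42.0% and 45.8% of the sum of Smarcb1, Smarcc1 and Smarcc2 in knockdown and 49.0% and 45.3% in control (exact two-sided permutation p = 0.667).

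**Figure D2:**
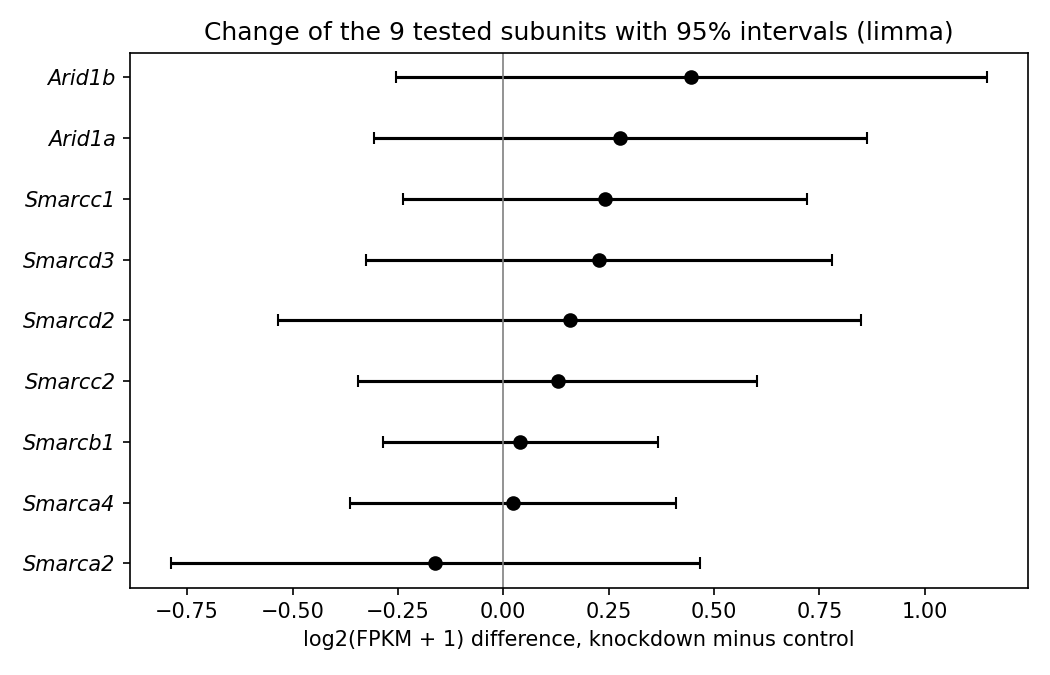
Difference between knockdown and control on the log2(FPKM + 1) scale for the 9 tested subunits, with 95% intervals from limma (2 samples per group). Every interval includes 0, and the widest belong to Arid1b, Smarcd2 and Smarca2.

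Among the Smarcd subunits, which link the complex to transcription factors, Smarcd2 was the highest in all 4 libraries. Smarcd2 (chromosome 11, 106263179 to 106272972, minus strand) stood at 7.18 and 3.97 FPKM in the knockdown libraries and 4.13 and 5.36 in the controls. The 2 knockdown libraries were the extremes, 1.81 times apart, with both controls between them. Its log2 fold change was 0.16 with an interval of -0.53 to 0.85 (limma adjusted p 0.932), and it was -0.20 and 0.52 without knockdown replicates 1 and 2.

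Smarcd3 (chromosome 5, 24590818 to 24624411, minus strand), whose upstream window is printed above, had 3.30 FPKM in both knockdown libraries and 2.17 and 3.25 in control. The groups did not overlap, but control replicate 2 stood just below the knockdown libraries and control replicate 1 set the difference. The log2 fold change was 0.23 with an interval of -0.32 to 0.78 (limma adjusted p 0.863), and it was 0.016 and 0.44 without control replicates 1 and 2. The 2 coding transcripts of Smarcd3 overlap exons of Chpf2, a glycosyltransferase gene on the opposite strand, over 37.0% and 37.5% of their length. No strand setting is given, so it is not known how far reads of the genes were told apart there. Chpf2 had 1.01 and 1.69 FPKM in the knockdown libraries and 1.40 and 1.85 in the controls. With both rows summed, an alternative chosen after the values were seen, the groups overlapped and the log2 fold change was 0.10 with an interval of -0.44 to 0.63 (limma adjusted p 0.949).

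Smarcd1 (chromosome 15, 99702129 to 99713991, plus strand) had 0.894 and 0.948 FPKM in the knockdown libraries and 1.18 and 0.850 in the controls. The knockdown values lay between the controls. Its log2 fold change was -0.064, and with no filter on low values its limma adjusted p was 0.952. Of the summed Smarcd level, Smarcd3 took 29.0% and 40.2% in knockdown and 29.0% and 34.4% in control, Smarcd2 took 63.1% and 48.3% against 55.2% and 56.6%, and Smarcd1 took 7.86% and 11.5% against 15.8% and 8.98%. The order Smarcd2, Smarcd3, Smarcd1 held in all 4 libraries, and the groups overlapped for each share (exact two-sided permutation p of 1 for Smarcd2 and 0.667 for the others).

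**Figure D3:**
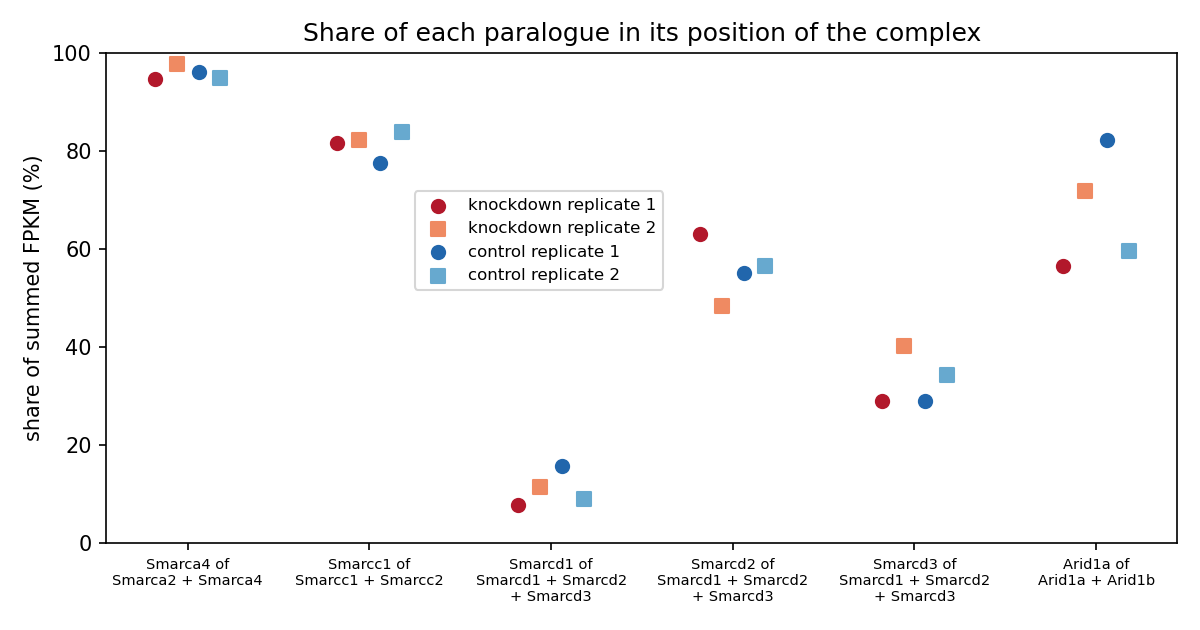
Share of each paralogue in the summed FPKM of the paralogues that fill the same position, in percent; each point is 1 library. Smarca4 holds 94.6% to 97.7% of the ATPase level, and the Arid1a share is the most variable, from 56.5% to 82.2%.

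Of the large subunits of the canonical complex, Arid1a (chromosome 4, 133679008 to 133756769, minus strand) stood at 2.40 and 3.63 FPKM in the knockdown libraries and 2.50 and 2.06 in the controls. Knockdown replicate 2 was the high library, and the groups overlapped. The log2 fold change was 0.28 with an interval of -0.31 to 0.86 (limma adjusted p 0.833), and it was 0.50 and 0.054 without knockdown replicates 1 and 2.

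Arid1b (chromosome 17, 4994332 to 5347656, plus strand), its alternative, varied most between libraries of the 10 in proportion to its level. It had 1.84 and 1.42 FPKM in the knockdown libraries and 0.543 and 1.40 in the controls. The groups did not overlap, with knockdown replicate 2 only just above control replicate 2. Its log2 fold change of 0.45 was the largest among the 10 subunits, with an interval of -0.26 to 1.15 (limma adjusted p 0.771). It was 0.77 without control replicate 2 and 0.13 without control replicate 1, so its size moved with both controls. With 0.1 or 0.5 in place of 1 added to the FPKM the log2 fold change was 0.81 or 0.59, and with quantile normalization it was 0.38. Arid1b passed the filter through its knockdown level, since its control mean was 0.972 FPKM. Arid1a made up 56.5% and 71.9% of the pair in knockdown and 82.2% and 59.5% in control (exact two-sided permutation p = 0.667), and stood above Arid1b in every library.

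The spread between replicates can be set beside depth. If all reads lay on the longest coding transcript, the values of Arid1b rested on about 241 to 765 reads of 150 nt and those of Smarcd1 on 108 to 153, while those of Smarca4 rested on 6322 to 9394. With each read counted on its own, counting error would then give a coefficient of variation of 3.61% to 6.45% for Arid1b. For any of the 10 it would be at most 9.61%. The reads came in pairs whose mates are not independent, so counting error by fragment would be larger than these values. The control replicates of Arid1b differed 2.58-fold, the knockdown replicates of Smarcd2 1.81-fold and those of Smarca2 1.80-fold. On the log2(FPKM + 1) scale the controls of Arid1b differed by 0.64, where the median over 4527 genes at 1 to 5 FPKM was 0.22 in control and 0.27 in knockdown. The high and low values were not in the same library for all subunits. Knockdown replicate 1 held the highest value of 5 of the 10, and control replicate 1 held the lowest of 4, Smarcb1, Smarcc1, Smarcd3 and Arid1b. The sum over the 10 subunits was 88.8 and 90.2 FPKM in the knockdown libraries and 77.5 and 87.0 in the controls.

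The remaining SWI/SNF subunits, a fixed list of 20 genes, gave 0 calls among 13 tested. Of these, 10 were positive and 3 negative, with a median log2 fold change of 0.11. The groups did not overlap for 7 of the 13, with knockdown above in 6 and below in 1, beside the 22.1% and 16.3% given above. Actl6a, an actin-related subunit, was the most abundant, with 62.6 and 63.7 FPKM in the knockdown libraries and 60.5 and 56.2 in the controls. Smarce1, an HMG-box subunit, had 35.4 and 35.5 FPKM in the knockdown libraries and 31.6 and 30.3 in the controls. Its groups did not overlap, and its log2 fold change was 0.19 with an interval of -0.077 to 0.46 (limma adjusted p 0.750). Bcl7b had 9.70 and 11.1 FPKM in the knockdown libraries and 21.8 and 10.5 in the controls, a log2 fold change of -0.51 (limma adjusted p 0.768) in which control replicate 1 was the high library. Outside the naming rule and picked after their values were seen, the neuronal subunit Actl6b and the lymphoid and neuronal subunits Bcl11a and Bcl11b were listed at 0 in all libraries. Arid2 and Pbrm1, chosen the same way, define the PBAF form. Arid2 had 3.46 and 3.20 FPKM in the knockdown libraries against 2.96 and 2.14, and Pbrm1 had 6.96 and 6.88 against 6.81 and 6.08. Neither passed, with limma adjusted p-values of 0.806 and 0.935.

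Other families of remodellers also gave 0 calls. Of 11 tested ISWI genes 4 were positive and 7 negative, with a median of -0.039. Smarca5, an ISWI ATPase, had 10.6 and 12.7 FPKM in the knockdown libraries and 9.87 and 9.45 in the controls (limma adjusted p 0.771). The histone chaperones Rbbp7 and Rbbp4 were the most abundant genes of that list, and Chrac1 had a log2 fold change of -0.16 (limma adjusted p 0.806). Of 12 tested CHD genes 9 were positive, with a median of 0.069. Chd2 had 2.08 and 1.72 FPKM in the knockdown libraries and 1.32 and 0.971 in the controls, and Mta2, a NuRD subunit, had 35.8 and 49.6 against 51.8 and 53.3, with limma adjusted p-values of 0.717 and 0.727. Mbd3, also of NuRD, had a log2 fold change of 0.12. Of 16 tested INO80 and SWR1-type genes 12 were positive, with a median of 0.074. The ATPase Ruvbl1 had 87.8 and 93.0 FPKM in the knockdown libraries and 107 and 104 in the controls, and Ino80b had 3.01 and 2.73 against 1.20 and 2.16, both with a limma adjusted p of 0.698. Ruvbl2, the partner of Ruvbl1, had a log2 fold change of 0.044. The difference between the SWI/SNF subunits and these families was not tested.

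**Figure D4:**
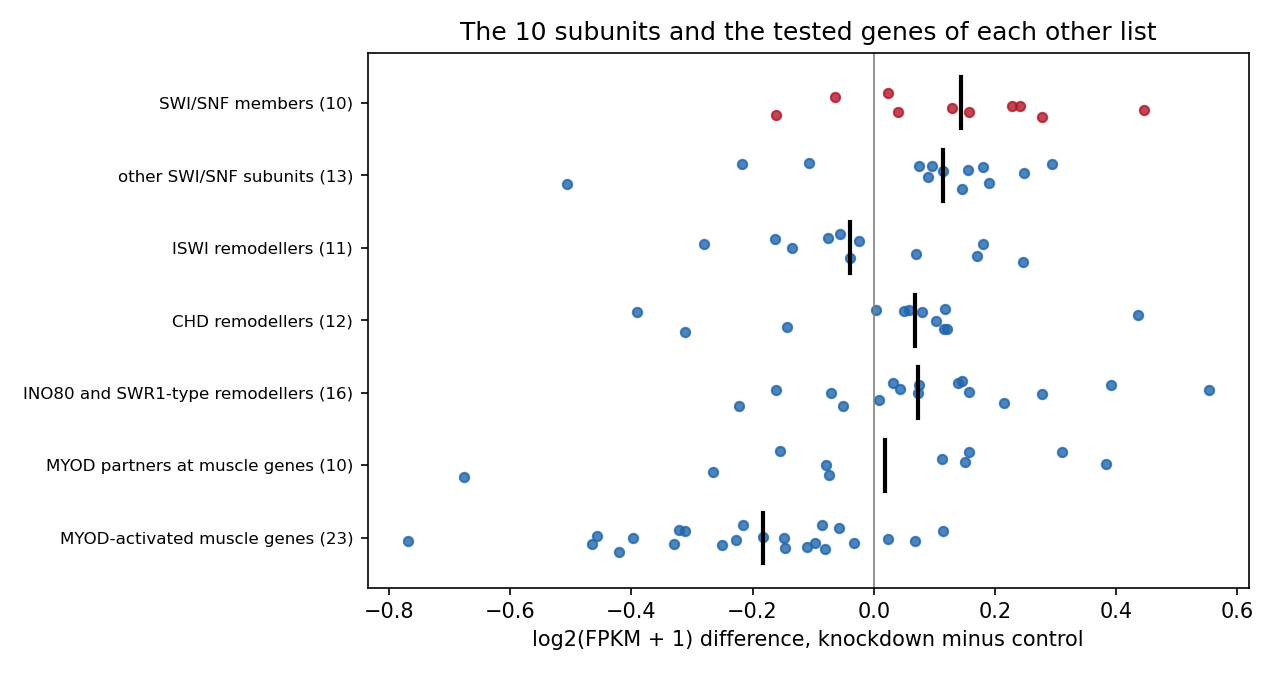
Difference between knockdown and control on the log2(FPKM + 1) scale for the 10 SWI/SNF subunits (red) and the tested genes of 6 other fixed lists (blue); each point is 1 gene, bars are list medians, and the vertical scatter within a list has no meaning. The subunits have a median of 0.14 and the MYOD-activated muscle genes one of -0.18.

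Factors that work with SWI/SNF at muscle genes were mixed, with 0 calls among 10 tested, 5 positive and 5 negative, and a median of 0.019, which was -0.0057 with quantile normalization and -0.0076 with scaling by median ratio. Myod1 had 583 and 667 FPKM in the knockdown libraries and 698 and 691 in the controls, so that both knockdown libraries were lower. Its log2 fold change was -0.15 with an interval of -0.37 to 0.064 (limma adjusted p 0.752). Carm1, an arginine methyltransferase with Smarcc1 among its substrates, had 1.40 and 1.54 FPKM in the knockdown libraries and 2.188 and 3.88 in the controls. Its log2 fold change was -0.68, with an unadjusted p of 0.0444 and an adjusted p of 0.692 by limma. Prmt5, the methyltransferase that acts with Smarca4, had 43.3 and 46.8 FPKM against 48.5 and 46.7 (limma adjusted p 0.904), and the MADS-box factor Mef2a had 8.26 and 7.28 against 6.91 and 4.70 (limma adjusted p 0.747).

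Genes that MYOD activates in differentiation gave 0 calls among 23 tested, of which 20 were negative and 3 positive, with a median log2 fold change of -0.18. Knockdown lay wholly below control for 10 of the 23, beside 16.3% of all genes tested, and wholly above for 1, beside 22.1%. An unadjusted limma p under 0.05 was found for 5 of the 23, beside 7.08%. The list median relative to the control mean was -0.10 for knockdown replicate 1 and -0.38 for knockdown replicate 2. Over the 10 SWI/SNF subunits the same measure was 0.15 and 0.079. Control replicates 1 and 2 had 0.030 and -0.030 for the muscle genes and -0.10 and 0.10 for the subunits. For the subunits, knockdown replicate 2 thus lay between the controls. Within the muscle gene list the lowest p-values belonged to cardiac actin Actc1 (-0.46) and the fusion protein gene Mymk (-0.46), both with a limma adjusted p of 0.523, and the most abundant genes were skeletal actin Acta1 (-0.42) and Myog (-0.40). Whether the 2 lists differ was not tested.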

How the data were processed

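Libraries were made from polyadenylated RNA with the SMART-Seq v4 and Ovation Ultralow kits and read as pairs of 150 nt, per the labels' protocols. Per the submitters' processing notes, StringTie 1.3.3, HISAT2 2.1.0, Trimmomatic 0.36, SAMtools 1.3, bcl2fastq 2.19 and build mm10 were used, in roles not stated there. For annotation and strandedness the sources used here state nothing. The deposited FPKM were made by the authors, and the unit was read from the values. Columns summed to between 317223 and 322496. Genes with several transcripts gave no whole counts, so no count model was used. Relative depth came from genes with 1 exon and 1 transcript, where FPKM times length fell within 0.1 of whole steps for 86.5% to 87.4% of values (20.0% by chance).

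All 10900 genes averaging 1 FPKM or more were tested with limma 3.58.1 (R 4.3.3, trend) on log2(FPKM + 1), two-sided, Benjamini-Hochberg adjusted over all of them at 0.05. Paralogue shares used an exact permutation test. Coordinates and exons came from GENCODE M21 (GRCm38), which held 54409 of the 54446 identifiers, and upstream windows from RefSeq. The fit was tested on simulated data, where it recovered the changes put in and the share of false calls lay above the nominal level. Python 3.11.15 made summaries and plots. The subunits and lists were chosen with earlier results of these data known. Named genes are the 10 subunits, Myod1, per list the genes past the threshold, the 2 with the lowest p and the 2 most abundant, and per marker list the highest; other genes named were chosen after their values were seen. Alternatives were a replicate block, 3 other scalings, pseudocounts of 0.1 and 0.5, no filter or one at 5 FPKM, no trend, and leaving out each library.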

Additional observations from a re-analysis of the deposited data

How the results depend on the processing

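In all 13 alternatives 0 of the tested subunits passed. The signs of 4 of them turned, in 3 settings for Smarca4 and in 1 each for Smarca2, Smarcb1 and Smarcd2. Smarca4 was -0.0055 with scaling by median ratio. With 1 library left out, Smarca2 ran from -0.39 to 0.066, Smarca4 from -0.17 to 0.22, Smarcb1 from -0.043 to 0.12, Smarcd2 from -0.20 to 0.52, and the median over the 10 subunits from 0.032 (without control replicate 1) to 0.15. The count of genes called, 6, was 3 with a replicate block, 0 with no filter on low values by limma, where 1508 genes had an unadjusted p under 0.05, and 5 to 15 when 1 library was left out. Samples of the same replicate number shared no deviation from their group means, with a correlation of -0.021 over genes. That value cannot tell whether they came from the same animal or culture. The block changed no call of a subunit. With quantile normalization the medians of ISWI and CHD genes were -0.064 and 0.00091, and with scaling by median ratio that of ISWI genes was -0.068. With 1 library left out, where a lone sample is taken to vary like the other group, the medians ran from -0.033 to -0.017 for ISWI, -0.018 to 0.10 for CHD, 0.035 to 0.17 for INO80 and SWR1-type genes, -0.063 to 0.056 for MYOD partners and -0.38 to -0.10 for MYOD-activated genes. The cause of these shifts was not tested. The filter at 5 FPKM left out the subunits below it, and Smarcd1 was tested only with no filter. With 2 samples per group 95% intervals of genes at 1 to 5 FPKM reached a median of 0.57 to each side on the log2 scale, which limits what could be seen for the low subunits.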
